A study of Mus musculus with 11 samples.

Results

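Day 3-only IRF4 regions with PU.1 are 615 places in the mouse genome where the transcription factor IRF4 was called on day 3 and not on day 1 of a B cell culture, and where its partner PU.1 was called as well. They were chosen by the authors' peak calls. A line of the IRF4 day 3 group list (1 list per factor and day, described below) was taken when no peak position of the IRF4 day 1 group list lay less than 200 bp away and a peak position of the PU.1 day 1 or day 3 group list did. They make up 615 of the 1964 lines of the IRF4 day 3 list and of the 3357 IRF4 regions of both days. In the IRF4 day 3 list, 43.8% of the lines had no day 1 partner and 75.8% had PU.1 in either list. IRF4 calls, PU.1 calls and the enrichment of both factors at these regions follow from this choice or from the same libraries, so they are given as a description, with no test.

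IRF4 belongs to the interferon regulatory factors. Activated B cells make it, and plasma cells keep making it at higher amounts. Alone it binds DNA weakly. With PU.1, an Ets-family factor of B cells and myeloid cells, it binds a joint element in which an Ets core (GGAA) stands beside an IRF core (GAAA), the Ets-IRF composite element or EICE. Without an Ets partner it can bind a pair of IRF cores, the interferon-stimulated response element or ISRE, or join AP-1 factors such as BATF at an AP-1-IRF composite element or AICE.

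The study asked where IRF4 and PU.1 sit in B cells after activation (day 3 against day 1), as cells differentiate into plasma cells. Mature B cells were taken from the spleens of B1-8i mice, a gene-targeted line whose B cells carry an antibody against the hapten NP, on the 129 background. All cultures of both days were stimulated through CD40 with CD40L, given IL-2, IL-4 and IL-5, and exposed to NP-Ficoll, an antigen that carries NP, at 0.01 ng/mL. Chromatin immunoprecipitation with sequencing gave 3 IRF4 libraries on day 3, 3 IRF4 libraries on day 1, 2 PU.1 libraries on day 3 and 2 PU.1 libraries on day 1. The authors' background was 1 input library of peripheral or immature B cells, made by pooling 2 preparations. It is not compared as a sample here, but every enrichment value is a ratio to it. The labels name no sort by stage on day 3, so a day 3 culture may hold cells that differentiated to different degrees.

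Peaks per IRF4 library numbered 1408 to 5595 on day 3, against 825 to 9326 on day 1. Peaks per PU.1 library numbered 34061 to 34410 on day 3, against 27321 to 38052 on day 1. The lowest enrichment over input was 16.4 in the IRF4 day 3 list and 20.9 in the IRF4 day 1 list, so the day 3 list reaches lower. No IRF4 day 1 library listed a peak under 20.9, while IRF4 day 3 replicates 1, 2 and 3 reached down to 16.4, 16.9 and 15. A day 3 peak under 20.9 thus could not be matched at an equal value on day 1. The files give no read counts, so the depth behind a peak is unknown. Whether replicates are separate animals or cultures is not in the labels, so a p-value over libraries measures a spread that may be technical.

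The sequences below were read from the mm9 reference at members that held an EICE or an ISRE and that were either among the strongest members seen in every IRF4 day 3 library and in no IRF4 day 1 library, or near a gene of the lists described further on. They are shown because the EICE was the most common of the motifs searched in the members. The choice of members did not use sequence, but it required a PU.1 peak, and PU.1 binds the EICE. Capitals mark the EICE (GGAANNGAAA), except at Cenpc1, where they mark an ISRE (GAAANNGAAA), and at Psmb8, where they mark an EICE and an ISRE that share bases. Each sequence runs 5′ to 3′ on the strand that carries the motif.
Tbc1d16, chr11:119052957-119053036, plus strand: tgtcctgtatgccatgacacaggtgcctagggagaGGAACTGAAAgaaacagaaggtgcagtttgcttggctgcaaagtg
Ctsc, chr7:95356086-95356165, minus strand: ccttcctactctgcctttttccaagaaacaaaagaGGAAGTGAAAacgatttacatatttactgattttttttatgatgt
Cenpc1, chr5:86406897-86406976, minus strand: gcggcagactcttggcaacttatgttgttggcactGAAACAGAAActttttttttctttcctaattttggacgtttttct
Cdnf, chr2:3495624-3495703, minus strand: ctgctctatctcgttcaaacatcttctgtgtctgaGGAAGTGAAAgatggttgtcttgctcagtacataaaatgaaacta
Bank1, chr3:135910479-135910558, plus strand: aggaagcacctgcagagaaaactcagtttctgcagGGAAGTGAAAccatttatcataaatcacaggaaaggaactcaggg
Dapp1, chr3:137644508-137644537, plus strand: tggctagcaaGGAAGTGAAActtggttgct
Slamf7, chr1:173561779-173561858, minus strand: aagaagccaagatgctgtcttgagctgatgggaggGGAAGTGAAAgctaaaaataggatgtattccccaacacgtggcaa
Cxcr4, chr1:130487485-130487564, minus strand: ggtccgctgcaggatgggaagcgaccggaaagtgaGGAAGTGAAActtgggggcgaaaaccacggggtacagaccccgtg
Rel, chr11:23653228-23653307, minus strand: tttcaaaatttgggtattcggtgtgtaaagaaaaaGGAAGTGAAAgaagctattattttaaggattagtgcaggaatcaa
Bcl2l1, chr2:152635994-152636073, minus strand: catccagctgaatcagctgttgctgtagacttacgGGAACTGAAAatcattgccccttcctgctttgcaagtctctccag
Psmb8, chr17:34335286-34335315, minus strand: tctgcgacaaGGAAGTGAAAGCGAAAgcca
Ccr6, chr17:8425164-8425243, minus strand: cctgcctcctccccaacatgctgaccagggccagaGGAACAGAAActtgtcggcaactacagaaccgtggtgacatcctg
In 8 of these 12 windows the bases in the middle of the EICE read GT, in 2 they read CT and in 1 CA. The 8 include Bank1, Dapp1, Slamf7, Cxcr4 and Rel, and the count of these forms over all members is given below.

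The name "day 3-only" holds for the lists and less so for single libraries. Of the 615 members, 171 (27.8%) were called in all 3 IRF4 day 3 libraries, against 40.5% of the whole IRF4 day 3 list, and the other 444 in 2. In the IRF4 day 1 libraries, 275 members (44.7%, 95% Wilson interval 40.8 to 48.7) were called in none, close to the 46% of all 861 lines of the day 3 list with no day 1 partner. A further 339 were called in 1 IRF4 day 1 library and 1 member in 2. The single day 1 library was replicate 2 for 178 of the 339, replicate 3 for 142 and replicate 1 for 19. Only 48 members were called in all 3 IRF4 day 3 libraries and in no IRF4 day 1 library. Without IRF4 day 1 replicate 2 or 3 the same rule gave 1037 or 1030 regions, and without IRF4 day 3 replicate 1 or 3 it gave 257 or 244.

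By single library, IRF4 day 3 replicates 1, 2 and 3 held 528, 331 and 542 of the members, and IRF4 day 1 replicates 1, 2 and 3 held 19, 179 and 143. The PU.1 day 3 replicates held 525 and 600, and the PU.1 day 1 replicates 557 and 575. Each PU.1 library of either day thus held more than 80% of the members, though the choice required PU.1 in at least 1 list. Day 3 replicate 2 was the lowest of the 3 IRF4 day 3 libraries.

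**Figure D1:**
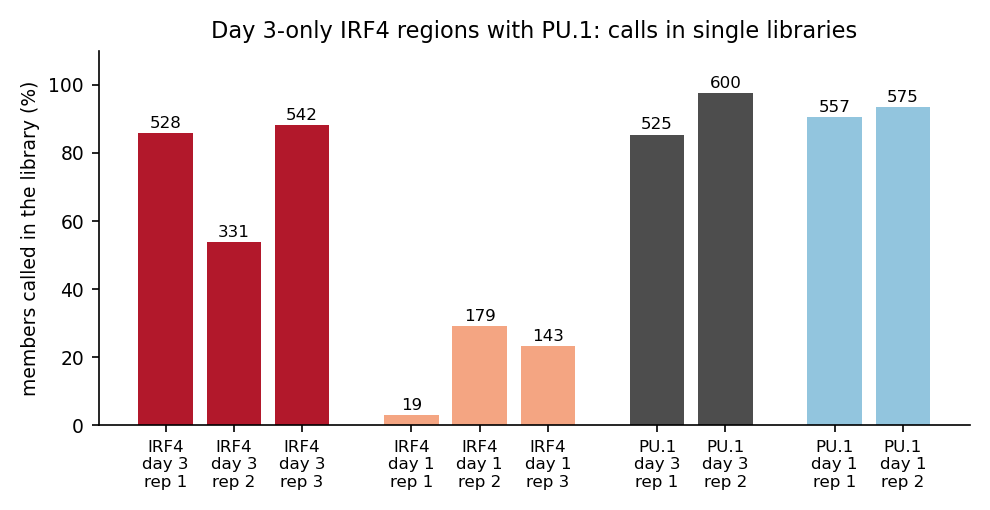
Percent of the 615 members called in each library (y axis), with the number of members above each bar, for the IRF4 day 3, IRF4 day 1, PU.1 day 3 and PU.1 day 1 replicates (x axis). The IRF4 difference between days was set by the choice of members. The 4 PU.1 bars lie between 85.4% and 97.6% on both days, and their height is partly set by the choice, which required PU.1 in at least 1 list.

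IRF4 enrichment at the members was lower than at the IRF4 regions of both days with PU.1. The median enrichment of members in IRF4 day 3 replicates 1, 2 and 3 was 22.8, 21.3 and 28.7, against 34.4, 27.8 and 37.2 at the both-day regions called in the same libraries. Where a member was called in an IRF4 day 1 library, its median there was 24, 32 and 32.6 in replicates 1, 2 and 3, against 30.4, 51.5 and 48.7 at the both-day regions. In each library the member median was below that of the both-day regions. Within the whole lists of the day 3 libraries, 46.2%, 38.2% and 74.5% of peaks were at or below the member median in replicates 1, 2 and 3.

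PU.1 was already called at most members on day 1. The PU.1 day 1 list had a peak at 545 of the 615 members (88.6%, interval 85.9 to 90.9), against 92.2% of all 1489 lines of the IRF4 day 3 list with PU.1 in either list. The PU.1 day 3 list had one at 517 (84.1%, interval 81 to 86.7). Each member needed PU.1 in at least 1 of these lists, so these shares are partly set by the choice. The 92.2% carries the same condition. Of the 517 members in the PU.1 day 3 list, 447 were in the day 1 list as well. In all, 447 members (72.7%) were in both PU.1 lists, 98 (15.9%) in the day 1 list only and 70 (11.4%) in the day 3 list only. Single libraries narrowed both of these smaller groups. Of the 70 members with PU.1 in the day 3 list only, 45 were called in 1 PU.1 day 1 library and 25 in neither. Of the 98 with PU.1 in the day 1 list only, 93 were called in 1 PU.1 day 3 library and 5 in neither. All 4 PU.1 libraries held 446 members (72.5%). Members called in no IRF4 day 1 library had PU.1 in the day 1 list in 231 of 275 cases (84%), and those called in 1 IRF4 day 1 library in 313 of 339 (92.3%).

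PU.1 peaks at the members were among the stronger ones of their lists. The median PU.1 enrichment of members was 200 in the day 3 list, where 88.6% of all peaks were at or below that value, and 132 in the day 1 list, where 87.8% were. Both lists had far lower medians over all their peaks, 51.8 on day 3 and 36.8 on day 1. Members with an EICE had medians of 259 on day 3 and 163 on day 1, and members without one 163 on day 3 and 100 on day 1. By library, the member medians were 198 and 201 in PU.1 day 3 replicates 1 and 2, against 312 and 328 at IRF4 regions of both days with PU.1. In PU.1 day 1 replicates 1 and 2 they were 126 and 168, against 206 and 298 at the both-day regions.

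Both factors peaked at nearly the same base. The PU.1 position lay a median of 23 bp from the IRF4 day 3 position on day 3 (quartiles 11 and 42, n = 517) and 22 bp on day 1 (quartiles 10 and 42, n = 545). Within 50 bp were 423 of the 517 PU.1 day 3 positions (81.8%) and 439 of the 545 day 1 positions (80.6%). The centre of the nearest EICE, in the 220 members with one, lay a median of 23 bp from the IRF4 position and, in the 208 of them with a PU.1 day 1 peak, 14.5 bp from the PU.1 day 1 position. The short distances are partly set by the choice, which required a PU.1 peak less than 200 bp away, and by the 200 bp searched for motifs.

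**Figure D2:**
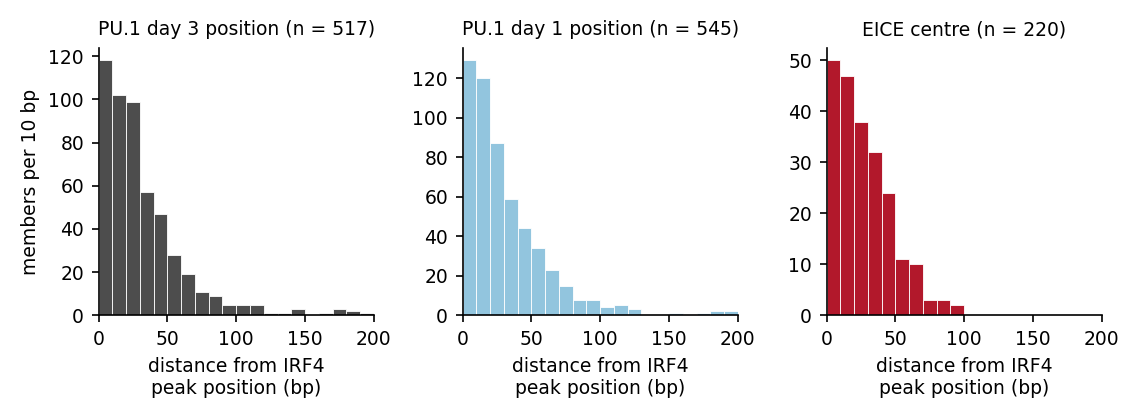
Number of members per 10 bp (y axis) by distance from the IRF4 day 3 peak position (x axis, bp) to the PU.1 day 3 position, the PU.1 day 1 position and the nearest EICE centre. All 3 fall off from the first bins, with 81.8%, 80.6% and 86.8% of values under 50 bp; y axes differ between panels.

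The EICE was the most common of the 5 motifs searched in the members, on both strands of the 200 bp around each IRF4 position. It was found in 220 of 615 members (35.8%, interval 32.1 to 39.6), against 30% of the IRF4 day 3 list and 1.54% of 200 bp windows 2 kb to either side of the members. Among these, 215 members held 1 EICE and 5 held 2. A plain PU.1 site (GAGGAAGT) was found in 113 members (18.4%), against 13.2% of the list and 1.22% of the flanks. It can overlap an EICE, and 34 of the 42 members with both had them sharing bases. The ISRE was found in 82 members (13.3%), against 12.7% of the list and 3.41% of the flanks. An AP-1 site (TGANTCA) was found in 65 members (10.6%), against 21.6% of the list and 6.42% of the flanks. The AICE (GAAATGANTNA or TTTCNNNNTGANTNA, which can overlap an AP-1 site) was found in 11 members (1.79%), against 5.8% of the list and 0.65% of the flanks. None of the 5 motifs was found in 228 members (37.1%). An EICE or an ISRE was found in 280 members (45.5%), and 22 held both, sharing bases in 13. A match says only that these letters are in the window.

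Set against the 246 day 3-only IRF4 regions without PU.1, members held more EICE and fewer AP-1 and IRF double sites. The EICE was in 35.8% of members and 4.47% of these regions, a difference of 31.3 points (interval 26.3 to 35.6, two-sided Fisher's exact test, adjusted exact p = 7.42e-24 over 15 motif tests). The PU.1 site was in 18.4% of members and 2.03% of these regions (adjusted exact p = 8.22e-12). The choice splits these classes by PU.1 binding, and PU.1 binds both the PU.1 site and the EICE. More of both in members was therefore largely set by the choice and is no separate finding. The ISRE was in 13.3% of members and 29.3% of these regions, a difference of -15.9 points (adjusted exact p = 3.71e-07). The AP-1 site was in 10.6% of members and 32.9% of these regions, a difference of -22.4 points (adjusted exact p = 5.67e-13), and the AICE in 1.79% and 9.76% (adjusted exact p = 1.55e-06). The ISRE, AP-1 site and AICE were compared across the same split by PU.1, whose part in their lower shares was not tested. Fisher's test takes regions as independent, though all come from the same few libraries. The AICE call was lost (-4.43 points, adjusted exact p = 0.0633) when a region had to be absent from every single library of the other day.

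Set against the 874 IRF4 regions of both days with PU.1, members held fewer AP-1 sites, while the EICE shares did not differ past the threshold of 0.05. The AP-1 site was in 10.6% of members and 18.5% of both-day regions, a difference of -7.97 points (interval -11.5 to -4.34, adjusted exact p = 3.86e-05). The AICE was in 1.79% of members and 4.58% of both-day regions (adjusted exact p = 0.00477), and the ISRE in 13.3% and 8.24%, a difference of 5.1 points (interval 1.92 to 8.44, adjusted exact p = 0.00271). The EICE was in 35.8% of members and 40.3% of both-day regions, a difference of -4.5 points (interval -9.44 to 0.518, adjusted exact p = 0.0894). The PU.1 site was in 18.4% and 15.8% (interval of the difference -1.26 to 6.55, adjusted exact p = 0.206). The ISRE call was lost without IRF4 day 3 replicate 3 (4.25 points, adjusted exact p = 0.0768) and the AICE call without IRF4 day 3 replicate 1 (-2.68 points, adjusted exact p = 0.11). The EICE difference passed the threshold without IRF4 day 1 replicate 2 or 3 (-11.9 and -12.8 points), and turned to 3.71 points (adjusted exact p = 0.34) among the weaker 50% of each IRF4 list.

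Set against the 652 day 1-only IRF4 regions with PU.1, members held more EICE and ISRE and fewer AP-1 sites when regions were taken as independent. This is a comparison of days with 3 IRF4 libraries each. By library, given below, the EICE shares of the days overlapped. The EICE was in 35.8% of members and 26.4% of day 1-only regions, a difference of 9.39 points (interval 4.3 to 14.4, adjusted exact p = 0.000552). The ISRE was in 13.3% of members and 5.83% of day 1-only regions (7.51 points, adjusted exact p = 1.12e-05). The AP-1 site was in 10.6% of members and 21.5% of day 1-only regions (-10.9 points, adjusted exact p = 3.71e-07). The PU.1 site was in 18.4% and 12.4% (adjusted exact p = 0.00477), and the AICE in 1.79% and 3.68% (adjusted exact p = 0.0666). The day 1-only regions rest on IRF4 day 1 replicates 2 and 3, and without them only 96 and 99 remained. The EICE difference was then -0.605 points without replicate 2 and -2.91 without replicate 3, and it was 4.6 points (adjusted exact p = 0.118) without IRF4 day 3 replicate 2. Without IRF4 day 1 replicate 2 the ISRE (4.38 points, adjusted exact p = 0.325), AP-1 site (-6.19 points, adjusted exact p = 0.185) and PU.1 site (2.97 points, adjusted exact p = 0.613) calls were lost too, and without replicate 3 that of the PU.1 site (4.34 points, adjusted exact p = 0.41). Without IRF4 day 1 replicate 1, or without PU.1 day 1 replicate 2 or PU.1 day 3 replicate 1, the AICE difference passed the threshold (-2.11, -2.7 and -2.21 points).

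**Figure D3:**
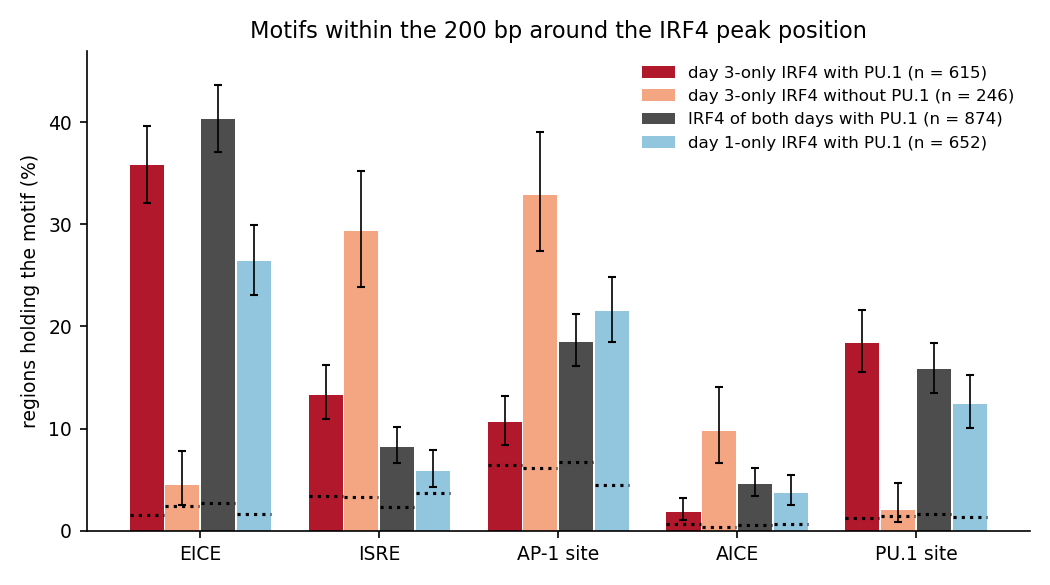
Percent of regions (y axis) holding each of 5 motifs (x axis) in the members and 3 other classes of IRF4 regions. Bars are shares with 95% Wilson intervals, and dotted lines are the shares of windows 2 kb to either side. Members stand at 35.8% for the EICE and at 10.6% for the AP-1 site, the lowest AP-1 share of the 4 classes.

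The same shares were also taken in each IRF4 library on its own, over its peaks that had no partner in the other day's IRF4 list and had PU.1 in either PU.1 list. The ISRE share was 12.3%, 12.3% and 11.7% in the 3 day 3 libraries and 6.29%, 6.4% and 6.87% in the 3 day 1 libraries, averaging 12.1% ± 0.355 and 6.52% ± 0.308 (SD, n = 3 each). The AP-1 share was 11.6%, 9.56% and 9.17% in the day 3 libraries and 20.3%, 16.4% and 16.6% in the day 1 libraries, averaging 10.1% ± 1.32 and 17.7% ± 2.2. For both motifs the libraries of the 2 days did not overlap, and each gave p = 0.1 in an exact permutation test, two-sided, the smallest that 3 against 3 libraries can give (adjusted exact p = 0.2 over 4 shares, n = 3 each). The EICE share was 32.1%, 36% and 25.5% in the day 3 libraries and 37.8%, 21.7% and 22.9% in the day 1 libraries (exact permutation p = 0.6). Here the days overlapped, and day 1 replicate 1, with 143 such peaks, stood highest of all 6.

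**Figure D4:**
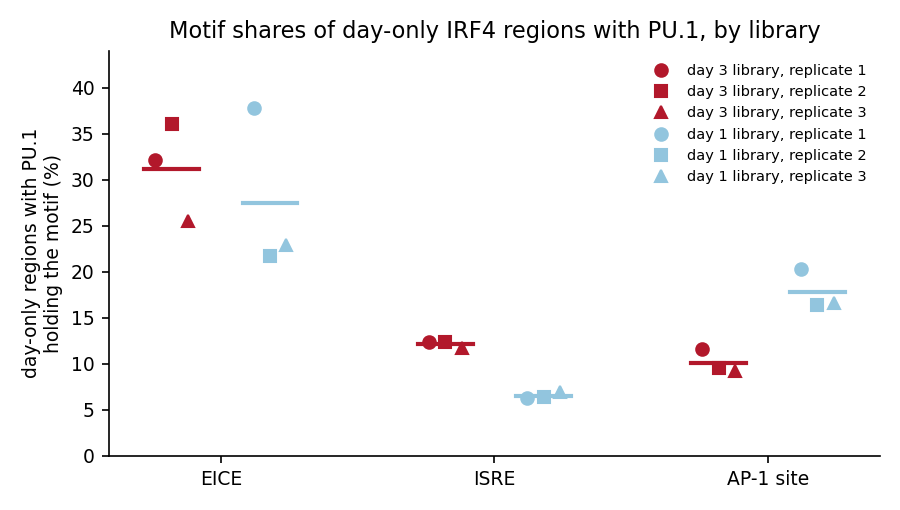
Percent of day-only IRF4 peaks with PU.1 that held each motif (y axis) in every IRF4 library; symbols are replicates and lines are means of 3 libraries. Day 3 libraries lie above day 1 libraries for the ISRE (11.7% to 12.3% against 6.29% to 6.87%) and below them for the AP-1 site, while EICE shares overlap.

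The EICE of the members also differed in the 2 bases between its cores. These forms were counted after the EICE shares had been seen, so they are described with no test. GGAAGTGAAA was in 96 of the 220 members with an EICE (43.6%, interval 37.2 to 50.2), GGAACTGAAA in 47 (21.4%, interval 16.5 to 27.2), GGAAATGAAA in 21 and GGAACAGAAA in 19. At IRF4 regions of both days with PU.1, GGAACTGAAA was in 143 of 352 (40.6%, interval 35.6 to 45.8) and GGAAGTGAAA in 122 (34.7%, interval 29.9 to 39.8). At day 1-only regions with PU.1, GGAACTGAAA was in 60 of 172 (34.9%) and GGAAGTGAAA in 63 (36.6%). By library, GGAACTGAAA made up 23.3%, 25.2% and 23.4% of the EICE peaks in the day 3 libraries and 42.6%, 32.4% and 30% in the day 1 libraries, with no overlap. The EICE peaks numbered 287, 147 and 500 in day 3 replicates 1, 2 and 3, and 54, 383 and 347 in those of day 1. The 42.6% thus rests on 54 peaks. GGAAGTGAAA made up 41.1%, 39.5% and 34.4% in the day 3 libraries and 35.2%, 32.6% and 34.9% in the day 1 libraries, and here the days overlapped. IRF4 enrichment moved with the forms, and its part in the differences was not tested. Below the median enrichment of the day 3 list (26.4), GGAACTGAAA was in 18.9% of EICE members and 29.8% of EICE both-day regions; at or above it, in 27.9% of EICE members and 44.6% of EICE both-day regions. GGAAGTGAAA was in 43.4% of EICE members and 40.4% of EICE both-day regions below that median, so there it led in both classes; at or above it, it was in 44.3% of EICE members and 32.6% of EICE both-day regions. The median split 434 members below from 181 at or above it, and 289 both-day regions below from 585. Among members GGAACTGAAA was in 14 of 93 with no IRF4 day 1 library call (15.1%) and in 33 of 127 with 1 (26%).

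Members where PU.1 was in the day 3 list only differed in motif shares from those where PU.1 was in the day 1 list. The EICE was in 12 of the 70 (17.1%) and in 208 of the 545 (38.2%), a difference of -21 points (two-sided Fisher's exact test, adjusted exact p = 0.000963 over the 5 motifs). The PU.1 site was in 3 of the 70 (4.29%) and in 110 of the 545 (20.2%; adjusted exact p = 0.000963). The groups were split by a PU.1 call, and PU.1 binds both the PU.1 site and the EICE. Fewer of both in the 70 was therefore largely set by this split and is no separate finding. The AP-1 site was in 17 of the 70 (24.3%) and in 48 of the 545 (8.81%; adjusted exact p = 0.000963). The ISRE was in 20% of the 70 and 12.5% of the 545 (adjusted exact p = 0.115), and the AICE in 4.29% and 1.47% (adjusted exact p = 0.119). The 3 calls were lost without IRF4 day 3 replicate 1 (EICE -19.2, AP-1 site 9.35 and PU.1 site -18 points, with adjusted exact p = 0.109, 0.155 and 0.0585) and without IRF4 day 3 replicate 3 (-24.7, 11 and -16.3 points, with adjusted exact p = 0.0788, 0.132 and 0.132). The ISRE difference passed the threshold without IRF4 day 3 replicate 3 (23 points) or PU.1 day 3 replicate 2 (12 points), and the AICE difference without PU.1 day 3 replicate 2 (5.39 points) or PU.1 day 1 replicate 1 (6.55 points). The PU.1 enrichment of the 70 was not set against that of the 545. In the PU.1 day 3 list, members with an EICE had a median of 259 and those without one 163. The part of PU.1 enrichment in the motif differences was not tested.

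**Figure D5:**
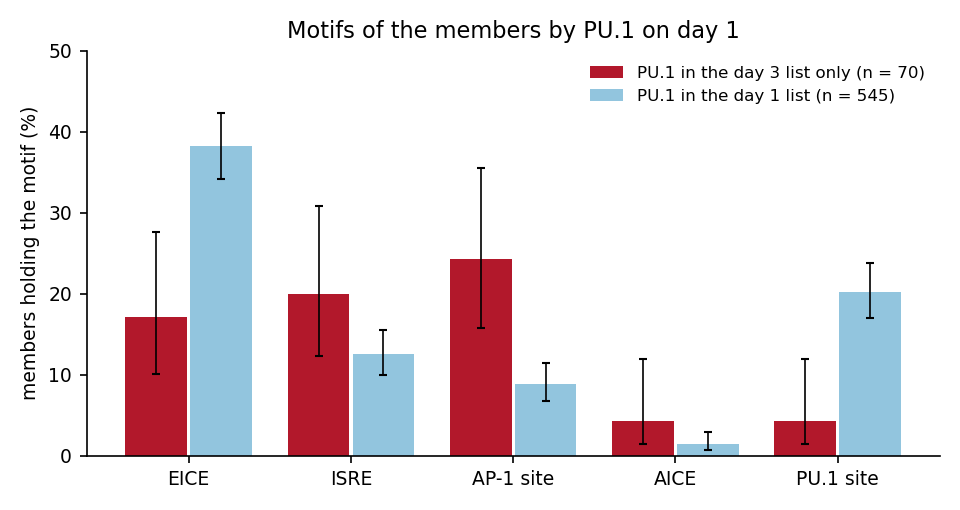
Percent of members (y axis) holding each motif (x axis), for members with PU.1 in the day 3 list only (n = 70) and in the day 1 list (n = 545), with 95% Wilson intervals. The EICE stands at 17.1% and 38.2%, and the AP-1 site at 24.3% and 8.81%. The groups were split by a PU.1 call, which largely set the EICE and PU.1 site differences.

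Members lay mostly away from promoters. Within 1 kb of the start of a protein-coding transcript were 77 members (12.5%), against 10.3% of the IRF4 day 3 list. A further 296 (48.1%) lay elsewhere in a gene and 242 (39.3%) between genes. By annotated feature, 311 peak positions fell in an intron, 20 in a UTR, 14 in another part of an exon and 270 between genes. None of 9 comparisons of these shares with the other classes passed the threshold (smallest adjusted exact p = 0.0897), with 4 of them under an unadjusted p of 0.05. Promoters held 12.5% of members and 9.15% of both-day regions, a difference of 3.37 points (interval 0.193 to 6.71, Fisher's exact p = 0.0398 before adjustment). The median distance to the nearest start was 12.1 kb for members and 14.3, 15.1 and 15.3 kb for day 3-only regions without PU.1, both-day regions and day 1-only regions with PU.1. Members at promoters held the EICE in 26 of 77 cases (33.8%), those in gene bodies in 107 of 296 (36.1%) and those between genes in 87 of 242 (36%). The ISRE was in 16.9% of promoter members, 9.12% of gene body members and 17.4% of intergenic members.

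Genes were counted as having a member when one lay in them or within 20 kb, a rule of distance that does not show which gene a region acts on. Of 22238 protein-coding genes, 726 (3.26%) had a member, and 8.46% had any IRF4 day 3 list peak. The gene lists hold 198 different genes. Many listed genes had some IRF4 day 3 list peak of any class, such as 14 of the 25 in the list of B cell receptor signalling and identity, so nothing particular to the members is read from these counts.

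Of 25 genes of B cell receptor signalling and identity, 4 had a member. At Bank1, which encodes a scaffold of B cell receptor signalling, the member (chr3:135910393-135910635, intron) had IRF4 enrichments of 26.4, 21.8 and 42.3 in day 3 replicates 1, 2 and 3 and was called in day 1 replicate 2 only (36.5). Its PU.1 enrichments were 1126 and 673 on day 3 and 556 and 223 on day 1, and its EICE is the one printed above. At Dapp1, which encodes an adaptor downstream of the receptor, the member (chr3:137644375-137644620) lay 32 bases before the gene's start. IRF4 stood at 23, 19 and 15.6 on day 3 and was called in day 1 replicate 3 only (26.5), and PU.1 stood at 1307 and 606 on day 3 and 456 and 708 on day 1. Both places had PU.1 in every library of both days. The other 2 were introns of the B cell transcription factor genes Ikzf3 (Aiolos) and Foxp1. The Foxp1 member (chr6:99003139-99003470) had IRF4 enrichments of 54.9, 32.2 and 56.4 on day 3, was called in day 1 replicate 3 only (31.4), and held none of the 5 motifs.

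Of 20 plasma cell genes, 4 had a member. Prdm1 encodes Blimp-1, the repressor that drives plasma cell differentiation. Its member (chr10:44154393-44154799) lay 93.7 kb from the annotated start, beyond the other end of the gene. IRF4 was called there at 22 and 16.4 in day 3 replicates 1 and 3 and in no day 1 library, and PU.1 was called in all 4 libraries, at 618 and 592 on day 3 and 435 and 349 on day 1. It held a PU.1 site and no EICE. Slamf7 encodes a surface receptor of plasma cells. Its member (chr1:173561678-173561911) was called at 17.5 and 21.7 in IRF4 day 3 replicates 2 and 3 and in no day 1 library, with PU.1 at 210 and 115 on day 3 and 72.2 and 105 on day 1. At Prdm1 and at Slamf7 the lower IRF4 value was under 20.9, the lowest enrichment in any IRF4 day 1 library. Atf6, a sensor of endoplasmic reticulum stress, had 2 members, 1 of them 0.131 kb before its start with no IRF4 day 1 library call. That member was called at 20.8 and 26.4 in IRF4 day 3 replicates 1 and 3, so its lower value was also under 20.9. Its PU.1 enrichment ran from 17.2 to 26.3 over the 4 PU.1 libraries. The fourth gene was Zbtb20, whose member lay in an intron of Tigit, its nearest gene, and 780 kb from the Zbtb20 start. It was called at 91.2 in IRF4 day 1 replicate 2.

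Of 20 germinal centre genes, 3 had a member. Bach2, which encodes a repressor that holds B cells back from plasma cell fate, had an intronic member (chr4:32488557-32488800) with IRF4 at 31.1, 17.5 and 24.1 on day 3, a call in day 1 replicate 2 only (50.3), and PU.1 at 743 and 638 on day 3 and 351 and 663 on day 1. Mef2c, a transcription factor gene of activated B cells, had 2 intronic members, and Cxcr4, the receptor for the chemokine CXCL12, had 1 in its intron with an EICE and a PU.1 site (PU.1 at 1137 and 578 on day 3 and 282 and 424 on day 1). Cxcr4 is also 1 of the 4 of 20 adhesion and homing genes with a member, the others being Itga5, Itgam and Ccr6. The member counted for Itgam lay at the promoter of another gene, Itgax. The Ccr6 member (chr17:8425097-8425245), 3.91 kb before the gene of this chemokine receptor, had IRF4 at 17.1 and 22.2 in day 3 replicates 1 and 3 and in no day 1 library. Its value of 17.1 was under 20.9, the lowest enrichment in any IRF4 day 1 library.

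Of 22 genes of NF-kB, AP-1 and activation, 2 had a member, both in introns with an EICE and each with 1 IRF4 day 1 library call: Rel, the gene of the NF-kB subunit c-Rel, and Bcl2l1, the gene of the survival factor Bcl-xL. Of 20 cytokine receptor genes, only Il4ra had one; it encodes a chain of the receptor for IL-4, a cytokine present in all cultures. None of 17 genes of antigen presentation and costimulation had a member, while 7 had some IRF4 day 3 list peak. With 50 kb in place of 20 kb, 5 of the 17 had one. This list holds no gene of peptide loading on class I molecules; Tap1, Psmb8 and Psmb9 are counted with the interferon-stimulated genes below. Tapbp, the gene of the loading factor tapasin, is in no list and was named after its values were seen. Its member (chr17:34056493-34056654), 0.125 kb from a start, held an ISRE and had IRF4 at 18.3 and 15.5 in day 3 replicates 1 and 3 and in no day 1 library, with PU.1 at 277 and 156 on day 3 and 68.4 and 124 on day 1. Both IRF4 values were under 20.9, the lowest enrichment in any IRF4 day 1 library.

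Of 23 interferon-stimulated genes, 5 had a member, but 3 of these share 1 region. Psmb8 and Psmb9 encode immunoproteasome subunits and Tap1 a peptide transporter. The member (chr17:34335122-34335420) fell in a UTR of Psmb8, 0.604 kb from its start, and held the EICE and ISRE sharing bases printed above. IRF4 was called at 24.1 and 20.4 in day 3 replicates 2 and 3 and at 27.9 in day 1 replicate 2, and PU.1 at 379 and 214 on day 3 and 116 and 192 on day 1. At Ifi204 the member was among the 70 with PU.1 in the day 3 list only, with PU.1 at 73.2 and 100 on day 3 and in day 1 replicate 2 alone at 33.1. The fifth gene was Stat2, a signal transducer of interferon receptors.

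Among marker genes of other cells, 2 of 19 myeloid markers (10.5%), Itgam and Tlr4, had a member, and none of 20 T and NK cell markers had. The member counted for Itgam lay 66.3 kb from the Itgam start and outside any gene. Its nearest start was that of Itgax, less than 1 kb away. Tlr4, the endotoxin receptor, is also used by mouse B cells. Its member at the start of the gene (chr4:66488538-66488906) had IRF4 at 56.7, 47.1 and 46.2 on day 3 and was called in day 1 replicate 3 only (61.8), and it held a PU.1 site. A peak near a marker gene does not show that the gene is expressed, so the make-up of the cultures cannot be read from these lists.

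The 10 members with the highest enrichment among those called in all 3 IRF4 day 3 libraries and in no IRF4 day 1 library, taken from lines of day 3 replicate 1, lay nearest to Itga5, Tbc1d16, Ctsc, Tbc1d5, Prpf18, Cbx6, Cenpc1, Snx5, Gm16484 and Cdnf. Itga5 encodes the alpha chain of a fibronectin receptor. Its intronic member (chr15:103191823-103192217) had IRF4 at 40.3, 31 and 64.9 on day 3 and PU.1 at 168 and 265 on day 3 and 49.3 and 73.3 on day 1, with none of the 5 motifs. The member in an intron of Tbc1d16, a regulator of Rab GTPases (chr11:119052845-119053173), had IRF4 at 39.6, 42.5 and 47.9 and an EICE, with PU.1 at 605 and 420 on day 3, against 206 and 275 on day 1. The member 70.5 kb before Ctsc, which encodes the lysosomal protease cathepsin C (chr7:95355885-95356242), had IRF4 at 38.3, 19.1 and 63.9, an EICE and a PU.1 site, with PU.1 at 721 and 272 on day 3 and 155 and 43.1 on day 1. All 3 places were called in all 4 PU.1 libraries.

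In that set of 10, the members at Prpf18 and Cenpc1 were the ones where PU.1 was called in no day 1 library. The Prpf18 member (chr2:4569157-4569422), in an intron of a splicing factor gene, had IRF4 at 36.1, 23.1 and 71.9 and PU.1 at 41.4 and 25 on day 3, with an AP-1 site and an AICE. The member nearest to Cenpc1, a gene of a centromere protein 87.7 kb away (chr5:86406687-86407112), had IRF4 at 32.4, 31.2 and 108 and PU.1 at 17.9 and 55.2 on day 3, with an ISRE and an AP-1 site. Neither held an EICE, and both had PU.1 values far below those at Tbc1d16 or Ctsc.

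The 10 highest members among all lines from IRF4 day 3 replicate 1 were each called in 1 IRF4 day 1 library. The highest lay 28.9 kb before Lyn, which encodes a kinase of B cell receptor signalling (chr4:3576165-3576512). It had IRF4 at 63.3, 29.1 and 34.7 on day 3 and at 53.9 in day 1 replicate 3, PU.1 at 638 and 552 on day 3 and 298 and 600 on day 1, and none of the 5 motifs. The others lay nearest to 4931406P16Rik, Ssh2, Tlr4, Ubl7, 1110003E01Rik, Foxp1, 4930523C07Rik, Tmem189 and Cd52, with enrichments between 52.2 and 59.8, and 3 of the 10 (at Ssh2, Ubl7 and 1110003E01Rik) held an EICE.

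The members spread over 576 different nearest genes. Of these, 34 were nearest to 2 or more members, and Etv6, Sla, Susd1 and Tgfbr2 were among those nearest to 3. Etv6 encodes an Ets-family repressor, and 1 of its members (chr6:133985591-133985797) had its peak 5 bases before the start and held an ISRE. The 3 members at Sla, which encodes an adaptor that dampens antigen receptor signalling, fell within introns and held none of the 5 motifs, while all 3 nearest to Susd1 held an EICE. Those nearest to Tgfbr2, a receptor chain for TGF-beta, lay 41.6 to 163 kb from its start, 1 of them in an intron of Gadl1.

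Near the edges of the rule, the members with the closest IRF4 day 1 list peaks were at Dip2b (414 bp away), Lyn (527 bp) and Mef2c (542 bp), and the closest places left out were at Specc1l (195 bp), Cxcr5 (163 bp) and Acoxl (154 bp). No member had an IRF4 day 1 list peak under 400 bp away, 9 had one under 1 kb and 94 under 10 kb, and the median distance was 114 kb. The members with the most distant PU.1 peaks were nearest to C130039O16Rik (196 bp), Sla (193 bp) and Mphosph6 (186 bp), and regions left out near Smchd1 and Ahr had PU.1 at 207 and 247 bp. The lowest enrichments among members were 16.4 at Slc23a2 and 16.5 at Clip4 and Zfp956.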

How the data were processed

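Per the series' design text, reads were mapped to mm9 and peaks and their enrichment over input computed with QuEST; mm9 is also the build in the submitters' processing notes. The aligner and QuEST's settings are not given in sources used here. Each deposited line holds an interval, its peak position and its highest enrichment. These fold values are the authors' linear ratios to input; they served to describe, rank and filter peaks inside 1 list. Libraries had a list each, and each factor and day had a group list, whose IRF4 lines were found to be copies of library lines with a partner in another library less than 200 bp away. Member lines came from IRF4 day 3 replicate 1 (528) and replicate 2 (87).

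Peaks less than 200 bp apart were counted as shared. Both-day regions were lines of the day 3 list. Motifs were searched in 200 bp of the mm9 reference (NCBIM37) around the position as deposited, taken as counting from 1 because no source used here gives its base. Sequence coordinates count from 1. Genes and features came from the GENCODE M1 annotation of the same build, with 5 of 198 listed genes matched through older symbols. Shares were compared with Fisher's exact test, two-sided, and Benjamini-Hochberg adjustment over 15 motif, 9 position and 5 timing tests; library shares with exact permutation tests. Intervals are 95% Wilson intervals, or Newcombe's for a difference, and cover counting error only. Python 3.11.15, scipy 1.17.1, numpy 2.4.6, pysam 0.24.0 and matplotlib 3.10.9 were used, and the class assignment, motif search and tests were tested on simulated data.

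The members and gene lists were chosen with earlier results of these data known. Named regions are the 10 strongest of replicate 1 lines called in all 3 day 3 and no day 1 IRF4 libraries, the 10 strongest of all replicate 1 lines, those of listed genes, genes nearest to 3 or more members (1 is not reported here), and members beside the thresholds. Of the first 10, and of the list members, those with an EICE or ISRE have their sequence printed (80 bases, or 30 near a UTR). Replicate numbers come from the sample descriptions, differ from those in the titles for some libraries, and are not said to pair libraries. The weaker 50% of each list and the EICE forms were added after the data were seen.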

Additional observations from a re-analysis of the deposited data

How the results depend on the processing

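The number of members depended on what counted as absent: 275 when absent from every single library of the other day, 179 in the stronger 50% of each IRF4 list, 341 from the lowest day 1 enrichment up, and 244 to 1037 with 1 library left out. PU.1 in the day 1 list covered 84%, 78.9% (PU.1 in any single library) and 91.6% (stronger 50%) of members, and 84.1% to 94% with 1 library left out. Against day 3-only regions without PU.1, the EICE, ISRE and AP-1 differences kept their call in every alternative run. These differences were taken across the split by PU.1 binding, which largely set that of the EICE. Against both-day regions, the AP-1 difference also kept its call in every alternative run. The ISRE difference there was 4.13 (absent from every library), 3.3 (stronger 50%), 3.7 (lowest day 1 enrichment up) and 2.6 points (100 bp window), none past the threshold, with a low of 3.61 and a high of 7.18 when 1 library was left out. The EICE difference there was -5.65 (PU.1 in any library), -9.93 (stronger 50%) and -5.76 points (100 bp window), all past the threshold, -12.8 to -2.83 with 1 library left out, and turned to 3.71 in the weaker 50%. Against day 1-only regions, leaving out 1 library gave EICE differences of -2.91 to 10.7, ISRE differences of 4.38 to 8.39 and AP-1 differences of -12.9 to -6.19 points; the ISRE difference was 4.7 in the stronger 50%, not past the threshold. The AICE difference there turned to 0.246 in a 100 bp window.

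Promoter differences, none past the threshold, changed sign. Against day 3-only regions without PU.1 they were -0.562 (absent from every library), -0.567 (stronger 50%), -0.904 (lowest day 1 enrichment up) and -4.81 to 2.7 with 1 library left out. Against day 1-only regions they were -0.929 (absent from every library), -1.02 (weaker 50%), -0.134 (promoter within 500 bp) and -0.193 to 4.05 with 1 library left out. By library they ran from -2.36 to 0.64. Of the 9 position differences, 2 passed when a region had to be absent from every single library of the other day. The share of GGAACTGAAA among EICE regions stayed lower in members in every alternative run, by -27.4 to -10.6 points against both-day regions and -27.4 to -7.65 against day 1-only regions. The cause of these changes was not tested.

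With the replicate number as a paired block, the library shares of the ISRE and AP-1 site gave an exact permutation p = 0.25 (differences of 5.55 and -7.63 points), the smallest that 3 pairs allow. Deviations of libraries with the same number in the sample descriptions correlated at -0.266, 0.0779 and -0.103, and the highest of the 9 correlations, 0.437, was between day 3 replicate 3 and day 1 replicate 1. The sample titles number some libraries differently, and the day 3 and day 1 libraries that share a title number correlated at 0.062 and 0.0829, so no numbers are taken as pairs. With no read counts in the files, a region missing from a list may lie just under that library's threshold.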

Other observations

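The 48 members called in all 3 IRF4 day 3 libraries and in no IRF4 day 1 library had the EICE in 18 cases (37.5%, interval 25.2 to 51.6), the ISRE in 9 (18.8%, interval 10.2 to 31.9), the AP-1 site in 5 (10.4%) and the PU.1 site in 11 (22.9%). PU.1 was in the day 1 list at 41 of the 48 (85.4%, interval 72.8 to 92.8), and 5 lay within 1 kb of a start. The share of G and C in the 200 bp windows had a median of 46.5% in all members, and of 44.5%, 46.5% and 47% in day 3-only regions without PU.1, both-day regions and day 1-only regions with PU.1.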
